A study of Mus musculus with 40 samples.

Results

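The Krüppel-like factors followed here are 8 zinc finger transcription factors of the mouse aorta, Klf2, Klf4, Klf5, Klf6, Klf9, Klf10, Klf13, and Klf15. They were taken by symbol, and each symbol occurred once among the 17402 genes of the genotype experiment and once among the 15399 genes of the CsA experiment. Aortic RNA was sequenced from male mice in both experiments. In the genotype experiment the labels give every library a floxed Ppp3r1 (CnB1), the gene for the regulatory subunit of the phosphatase calcineurin (Cn), and all mice had received tamoxifen (1 mg daily for 5 days), about 6 weeks before use. Libraries labelled as negative for Cre are called Cn-Ctl, and those with the tamoxifen-inducible, smooth muscle-specific Myh11-CreERT2 transgene are called SM-Cn-/-. The methods of the study also count Cre-positive mice with wild type CnB1 among its Cn-Ctl controls, and the labels place none of these in a library. Either genotype was used untreated or after 2, 6, or 24 h of angiotensin II (Ang-II), which a minipump delivered at 1 µg/kg/min. In the CsA experiment, C57BL/6J mice received no inhibitor (WT) or the calcineurin inhibitor cyclosporin A by minipump for 5 days (CsA), and were then left untreated or given Ang-II for 2 or 24 h. Each library pooled 3 aortas after removal of the adventitia and perivascular tissue, and each group had 3 libraries, with the exception of the untreated and the 24 h Cn-Ctl groups, which had 2 libraries each. Treated Cn-Ctl mice, and the treated mice of both arms of the CsA experiment, entered a pool only with a systolic pressure over 130 mmHg, whereas treated SM-Cn-/- mice were taken without that selection. Genotype and selection on pressure therefore cannot be told apart in the treated aortas, and WT mice carried no pump during the days when CsA mice did.

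Krüppel-like factors share 3 zinc fingers at the carboxyl end that bind GC-rich and CACCC sequences, and they differ in the rest of the protein, through which they activate or repress. In the vessel wall Klf2 and Klf4 are known as flow-induced factors of the endothelium, Klf4 and Klf5 as factors of smooth muscle phenotypic change, with Klf4 repressing contractile genes, and Klf6 as an early injury-response factor. Klf10 is an early target of TGF-beta, and Klf9, Klf13, and Klf15 are known targets of the glucocorticoid receptor, of which Klf9 and Klf15 also follow the circadian clock and Klf15 controls amino acid and glucose metabolism.

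The promoters of Klf2, Klf4, Klf6, and Klf15 are shown because the level of each differed between the genotypes after Ang-II, lower in SM-Cn-/- aortas for Klf2, Klf4, and Klf6 and higher for Klf15. RefSeq promoter sequences on GRCm38.p6 were matched for 6 of the 8 members, Klf2, Klf4, Klf6, Klf9, Klf13, and Klf15. The bases before the annotated start are printed 5′ to 3′ on the strand of the gene, for Klf2 chr8:72318812-72319032 (+), for Klf4 chr4:55532476-55532725 (-), for Klf6 chr13:5861239-5861481 (+), and for Klf15 chr6:90462326-90462575 (+). Capitals mark matches on either strand to the CRE core TGACG, the MEF2 site, the CArG box, and the E-box CACGTG.
Klf2: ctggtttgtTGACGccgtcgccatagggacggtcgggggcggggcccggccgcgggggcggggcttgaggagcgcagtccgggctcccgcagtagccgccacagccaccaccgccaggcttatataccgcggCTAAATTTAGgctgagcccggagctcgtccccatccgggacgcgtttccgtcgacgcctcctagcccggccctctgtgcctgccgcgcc
Klf4: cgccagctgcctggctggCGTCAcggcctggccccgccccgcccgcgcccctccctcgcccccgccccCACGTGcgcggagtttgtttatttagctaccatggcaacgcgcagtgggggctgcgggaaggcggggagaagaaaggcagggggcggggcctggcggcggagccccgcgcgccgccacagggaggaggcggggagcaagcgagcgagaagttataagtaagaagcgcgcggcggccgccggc
Klf6: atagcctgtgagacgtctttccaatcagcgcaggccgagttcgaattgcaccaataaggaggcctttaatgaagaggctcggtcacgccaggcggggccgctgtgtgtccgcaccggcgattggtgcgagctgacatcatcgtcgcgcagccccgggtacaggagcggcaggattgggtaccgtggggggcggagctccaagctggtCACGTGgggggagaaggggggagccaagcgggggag
Klf15: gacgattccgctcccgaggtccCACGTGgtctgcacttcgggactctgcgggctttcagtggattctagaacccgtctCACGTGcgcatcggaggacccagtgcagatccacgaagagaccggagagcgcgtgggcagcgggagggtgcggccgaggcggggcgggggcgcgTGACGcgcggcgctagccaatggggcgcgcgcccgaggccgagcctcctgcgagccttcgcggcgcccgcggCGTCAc

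Over the 250 bases before the RefSeq start, the 6 promoters were rich in G and C, from 59.6% in Klf9 to 74% in Klf4, beside a median of 52.4% over the 32841 mouse promoters of the same length. The MEF2 site, the binding motif of the MEF2 factors that act downstream of the kinase Erk5 on Klf2 and Klf4, matched in 1 of 6, the promoter of Klf2, where it began at position -118 from the start, and in 2.92% of all promoters. The CRE core TGACG, which CREB proteins bind, matched in 5 of 6, all but Klf6, and in 17.8% of all promoters. The E-box CACGTG matched in 3 of 6 (Klf4, Klf6, and Klf15, the last at 2 positions) and in 6.02% of all promoters. The GC box GGGCGG, which members of this family and Sp1 bind, matched in 5 of 6 and in 32.7% of all promoters, and the NFAT core GGAAA in 3 of 6 and in 55.6%. The CArG box, the full CRE TGACGTCA, and the heat shock element GAANNTTC matched in 0 of 6, and in 1.47%, 1.55%, and 6.7% of all promoters. A match is a run of letters in this window and was not tested for binding.

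All values are signal, the deposited normalized value the assigned reads plus 0.5, scaled by library size to a range close to RPM (reads relative to library size), and n is the number of pools. Libraries held 2.73 to 10.25 M assigned reads in the genotype experiment and 18.98 to 38.9 M in the CsA experiment. Log2 differences were taken on log2(signal + 0.5) and tested with limma, with Benjamini-Hochberg adjustment over all 14424 or 13738 protein-coding genes. A gene counts as called at an adjusted p under 0.05. The groups of 2 or 3 pools allow no exact permutation p under 0.1. Ppp3r1, counted over the whole gene and over all cells of the wall, had a signal of 91.3 ± 17.8 (SD, n = 2) in untreated Cn-Ctl and 67.3 ± 17.5 (SD, n = 3) in untreated SM-Cn-/- aortas and was not called at any time. Rcan1, a target gene of calcineurin and NFAT, reached 384 ± 18.5 in Cn-Ctl and 44.5 ± 12 in SM-Cn-/- aortas at 2 h (SD, n = 3), and 296 ± 57.9 in WT and 133 ± 31.4 in CsA aortas (SD, n = 3). Smooth muscle genes were abundant in every library, and the markers of other cells given below beside single results were present in all of them. In 2 libraries of the CsA experiment genes of the airway epithelium were high: 7 of the 8 airway markers (Scgb1a1, Scgb3a1, Bpifa1, Cyp2f2, Foxj1, Krt5, Cdh1, and Epcam, a list made after these values were seen) were in the table, and their summed signal was 6052 in WT Ang-II 2 h replicate 2 and 2458 in CsA untreated replicate 1, against 4.2 to 42.5 in the other 16 libraries. Values without both are given wherever leaving them out changed the call of a member, and for some other results. The remaining results that rest on either, among them all lists and markers, are given only with both included.

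In untreated aortas Klf6 and Klf9 were the most abundant members per length and Klf5 the least. Per kb of exon, Klf6 had a signal of 59.3 ± 6.66 in Cn-Ctl (SD, n = 2) and 64.3 ± 17.2 in WT aortas (SD, n = 3), and Klf9 58.6 ± 12 and 46.5 ± 2.93. The libraries of these 2 genes overlapped in every untreated group, so their order is not resolved. In Cn-Ctl, Klf13 (19.3 per kb), Klf2 (16.1), Klf15 (14.3), and Klf4 (12.1) followed, each overlapping with the next in the order. Klf10 was lower at 6.66 ± 3.33 per kb and Klf5 at 0.563 ± 0.222 per kb (SD, n = 2), with no overlap between them or with Klf4. In CsA aortas the order began with Klf9 (46.0), Klf6 (44.5), and Klf2 (43.4), of which Klf9 overlapped with Klf6 and Klf6 with Klf2, while Klf2 lay above Klf15 (27.9) without overlap. The 2 tables were normalized separately, so levels are compared here within an experiment only.

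**Figure D1:**
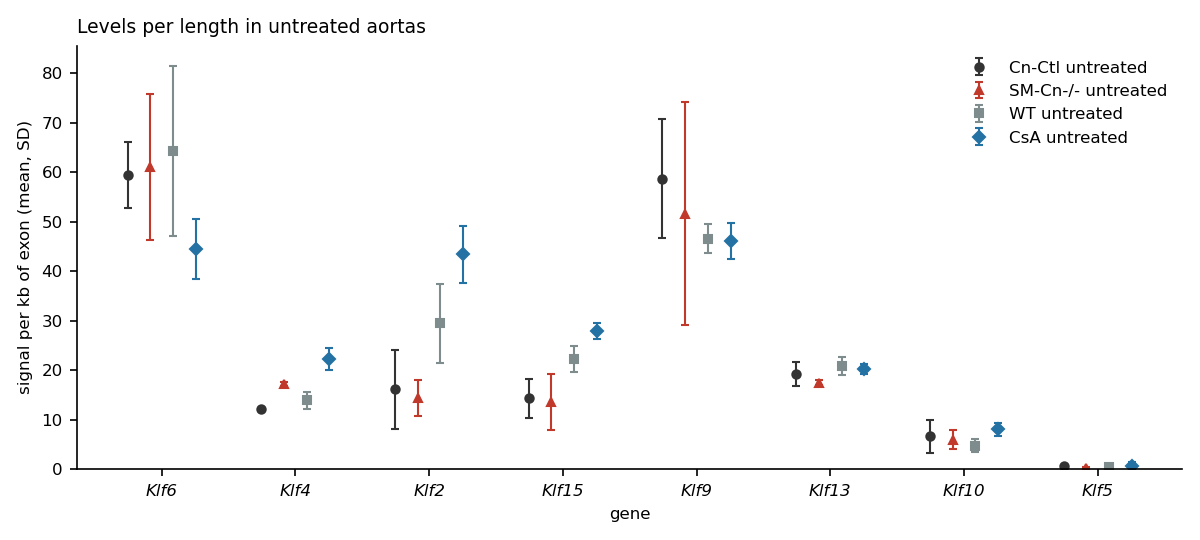
Signal per kb of exon (y axis) of the 8 members in the 4 untreated groups (mean with SD as bars, n = 3 pools, 2 for Cn-Ctl). Klf6 and Klf9 lie highest in Cn-Ctl, SM-Cn-/-, and WT aortas, and Klf5 lies lowest in all 4 groups.

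Does Ang-II change these factors, and does the change need calcineurin in smooth muscle? In Cn-Ctl aortas Klf6, Klf4, and Klf2 rose at 2 h, by 4.77-, 4.51-, and 2.45-fold, and no member was called lower. At 2 h, 3 of 8 members were called, beside 6.23% of all genes, with a median log2 difference of 0.53 over the members and 0.01 over all genes. In SM-Cn-/- aortas Klf6 rose by 1.92-fold and Klf15 by 2.03-fold, 2 of 8 members beside 1.13% of all genes (medians 0.64 and -0.01). Between the genotypes at 2 h, Klf6, Klf4, and Klf2 were lower in SM-Cn-/- aortas, 3 of 8 beside 3.7% of all genes, and the responses of Klf6 and Klf4 differed between the genotypes, 2 of 8 beside 0.513%. At 6 h Klf6, Klf4, and Klf2 were the 3 of 8 members called in Cn-Ctl aortas, beside 3.97% of all genes. Between the genotypes Klf6, Klf2, and Klf15 were the 3 of 8 called at 6 h, beside 1.98%, and Klf15 was the 1 of 8 at 24 h, beside 4.94%. In untreated aortas 0 of 8 were called between the genotypes by limma, edgeR, and DESeq2, with 0 at an unadjusted p under 0.05, beside 0.0139% of all genes. The responses at 6 and 24 h differed for 0 of 8 members by all 3 tools, with 4 and 2 at an unadjusted p under 0.05, beside 0.0624% and 0.513% of all genes. The pools of a treated group lay apart from the untreated ones in 4, 3, and 3 of 8 members at 2, 6, and 24 h in Cn-Ctl aortas, beside 39.1%, 34%, and 49.8% of all genes. The counts were 6, 7, and 1 of 8 in SM-Cn-/- aortas, beside 20.5%, 18.9%, and 19.6%. Untreated and at 2, 6, and 24 h the genotypes lay apart in 2, 6, 4, and 3 of 8 members, beside 23.5%, 22.2%, 14.4%, and 35.1%. Comparisons within an experiment share libraries, so these counts are not independent of each other.

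**Figure D2:**
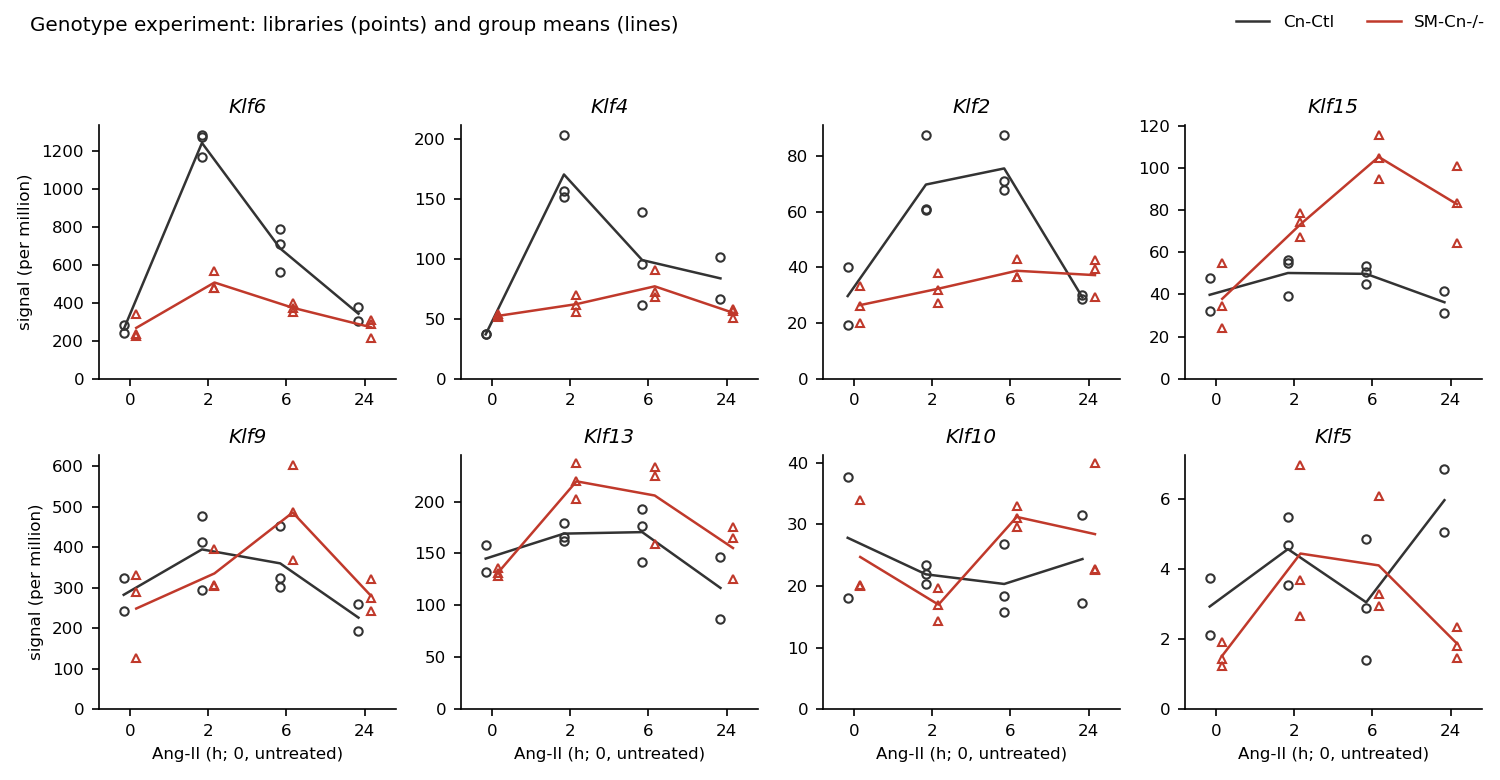
Signal (y axis, from 0) of each member against hours of Ang-II (x axis, evenly spaced and not to scale, 0 is untreated) in Cn-Ctl (circles) and SM-Cn-/- aortas (triangles); points are pools and lines join group means. Klf6, Klf4, and Klf2 peak at 2 or 6 h in Cn-Ctl aortas, whereas Klf15 is highest at 6 h in SM-Cn-/- aortas.

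Klf6 (ENSMUSG00000000078, chr13:5861482-5870394 on GRCm38) rose at 2 h in both genotypes. Its signal was 240 and 281 in the untreated Cn-Ctl pools and 1169, 1282, and 1273 at 2 h. It was 560, 712, and 786 at 6 h and 306 and 379 at 24 h. The SM-Cn-/- signal was 226, 342, and 235 untreated and 566, 478, and 476 at 2 h, then 374, 398, and 350 at 6 h and 312, 286, and 215 at 24 h. Every pool at 2 h lay above every untreated pool of its genotype, and the SM-Cn-/- pools at 2 h lay below all Cn-Ctl pools at 2 h, while the untreated pools of the genotypes overlapped. The log2 difference from untreated at 2 h was 2.25 ± 0.20 (SE) in Cn-Ctl (limma, adjusted p = 1.6e-07) and 0.94 ± 0.18 in SM-Cn-/- aortas (adjusted p = 0.00857), and the response was smaller in SM-Cn-/- by -1.31 ± 0.27 (95% CI -1.87 to -0.75, adjusted p = 0.0209).

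The genotypes still differed in Klf6 at 6 h. Cn-Ctl aortas kept a log2 difference from untreated of 1.39 ± 0.20 (adjusted p = 2.28e-04), SM-Cn-/- aortas had 0.51 ± 0.18 (adjusted p = 0.147), and SM-Cn-/- lay below Cn-Ctl by -0.86 ± 0.18 (adjusted p = 0.011). The difference between the 6 h responses, -0.88 ± 0.27, did not pass the threshold (adjusted p = 0.469), at a time when 0.0624% of all genes did. Leaving out 1 library ended the call of the 2 h response difference for untreated Cn-Ctl replicate 2 (-1.20, adjusted p = 0.243) and 3 (-1.43, 0.07), Cn-Ctl 2 h replicate 2 (-1.29, 0.07), untreated SM-Cn-/- replicate 2 (-1.12, 0.0634), and SM-Cn-/- 2 h replicate 2 (-1.27, 0.0729), and quantile normalization (adjusted p = 0.203) and a fit without an intensity trend (0.0836) did so too. The rise in SM-Cn-/- aortas at 2 h lost its call without SM-Cn-/- 2 h replicate 1 (0.86, adjusted p = 0.0723) or untreated SM-Cn-/- replicate 3 (0.86, 0.0861). The one at 6 h was called without untreated SM-Cn-/- replicate 2 (0.69, 0.046). The 6 h difference between genotypes lost its call without Cn-Ctl 6 h replicate 2 or 3 (adjusted p = 0.0583 and 0.05) or SM-Cn-/- 6 h replicate 3 (0.0679) and with only the groups compared (0.128).

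Klf4 (ENSMUSG00000003032, chr4:55527143-55532466) rose in Cn-Ctl aortas at every time and passed the threshold at no time in SM-Cn-/- aortas. The Cn-Ctl signal was 36.9 and 37.1 untreated and 156, 203, and 152 at 2 h. It was 95.8, 61.9, and 139 at 6 h and 66.1 and 101 at 24 h. The SM-Cn-/- signal was 51.7, 53.7, and 52.0 untreated and 55.4, 70.0, and 61.3 at 2 h. It was 68.1, 72.4, and 90.7 at 6 h and 57.8, 56.6, and 50.8 at 24 h. Untreated SM-Cn-/- pools all lay above untreated Cn-Ctl pools, and at 2 h they all lay below them. The log2 difference from untreated at 2 h was 2.18 ± 0.25 in Cn-Ctl (limma, adjusted p = 4.91e-06) and 0.24 ± 0.22 in SM-Cn-/- aortas (95% CI -0.22 to 0.70, adjusted p = 0.665). The responses differed by -1.94 ± 0.33 (95% CI -2.63 to -1.25, adjusted p = 0.00607), and at 2 h SM-Cn-/- lay below Cn-Ctl by -1.44 ± 0.22 (adjusted p = 3.56e-04). The response difference holds the untreated difference with the opposite sign. Untreated, the mean signal was 52.5 in SM-Cn-/- (n = 3) and 37.0 in Cn-Ctl aortas (n = 2), a difference that was not called.

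At the later times Klf4 stayed above its untreated level in Cn-Ctl aortas, by 1.33 ± 0.25 at 6 h (adjusted p = 0.00253) and 1.13 ± 0.27 at 24 h on the log2 scale (adjusted p = 0.0155), where it was the 1 member called of 8 beside 5.62% of all genes. The 24 h responses differed by -1.07 ± 0.35 without passing the threshold (adjusted p = 0.198). The 24 h call was lost without Cn-Ctl 24 h replicate 3 (0.83, adjusted p = 0.252) or untreated Cn-Ctl replicate 2 or 3 (0.104 and 0.1), and the 2 h response difference without untreated Cn-Ctl replicate 2 (-1.93, 0.0585). A fit of only the groups compared ended the calls at 6 h (adjusted p = 0.128) and 24 h (0.0853).

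Klf2 (ENSMUSG00000055148, chr8:72319033-72321656) rose in Cn-Ctl aortas at 2 and 6 h. Its signal was 19.2 and 40.2 untreated, 60.5, 87.7, and 61.0 at 2 h, and 67.9, 71.1, and 87.6 at 6 h, and had returned to 28.5 and 29.9 at 24 h. The SM-Cn-/- pools had 26.2, 33.3, and 19.9 untreated, 38.0, 32.0, and 27.1 at 2 h, 43.1, 36.6, and 36.6 at 6 h, and 39.5, 29.4, and 42.7 at 24 h. The genotypes overlapped untreated and did not overlap at 2 and 6 h. The log2 differences from untreated in Cn-Ctl aortas were 1.29 ± 0.28 at 2 h (limma, adjusted p = 0.00481) and 1.42 ± 0.28 at 6 h (adjusted p = 0.00375), against 0.30 ± 0.25 (adjusted p = 0.617) and 0.57 ± 0.25 (adjusted p = 0.247) in SM-Cn-/- aortas. SM-Cn-/- lay below Cn-Ctl by -1.09 ± 0.25 at 2 h (adjusted p = 0.0123) and by -0.95 ± 0.25 at 6 h (adjusted p = 0.0486), but the difference between the 2 h responses, -0.99 ± 0.37 (95% CI -1.76 to -0.21), did not pass the threshold (adjusted p = 0.426).

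The Klf2 rise in Cn-Ctl aortas rested on untreated replicate 2, the lower of the untreated pools: without it the 2 h and 6 h differences were 0.76 (adjusted p = 0.244) and 0.89 (adjusted p = 0.2). The 6 h call was also lost with only the groups compared (adjusted p = 0.106). The difference between genotypes at 2 h lost its call without Cn-Ctl 2 h replicate 2 (-0.91, adjusted p = 0.1) or SM-Cn-/- 2 h replicate 2 or 3 (0.0557 and 0.0545). At 6 h it was lost without any of Cn-Ctl replicates 1, 2, and 3 or SM-Cn-/- replicates 2 and 3 (adjusted p between 0.0714 and 0.181), and under 8 alternatives, with adjusted p between 0.0501 and 0.121.

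Contractile genes of smooth muscle, markers of other cells, and genes of the heat shock response were read beside Klf6, Klf4, and Klf2. The summed signal of 14 contractile genes was 40869 to 42015 in untreated Cn-Ctl and 29873 to 34668 in untreated SM-Cn-/- aortas, without overlap. At 2 h it was 37499 to 49166 in Cn-Ctl and 34836 to 43647 in SM-Cn-/- aortas, with overlap. At 6 h (43560 to 48292 and 33808 to 39766) and 24 h (37666 to 64351 and 33824 to 37038) the genotypes lay apart. The summed signal of 10 endothelial markers was 411 to 518 in untreated Cn-Ctl and 407 to 639 at 2 h, with overlap, and 646 to 885 in untreated SM-Cn-/- and 790 to 971 at 2 h, so the genotypes lay apart both before and after Ang-II. The summed signal of 6 adventitial fibroblast markers went from 1243 to 2118 in untreated Cn-Ctl to 2445 to 4167 at 2 h, and from 1772 to 2122 to 2677 to 2831 in SM-Cn-/- aortas, without overlap in either. The sum of 7 macrophage markers went from 90.8 to 122 to 139 to 357 in Cn-Ctl aortas, without overlap, and was 166 to 288 untreated and 203 to 236 at 2 h in SM-Cn-/- aortas, with overlap. The summed signal of 6 heat shock genes rose from 2154 to 2635 in untreated Cn-Ctl to 17386 to 22966 at 2 h, and was 2955 to 4275 in SM-Cn-/- aortas at 2 h. All 6 genes were called in Cn-Ctl aortas. In SM-Cn-/- aortas 0 of 6 were called by limma and by edgeR and 1 by DESeq2, with 6 at an unadjusted p under 0.05, and 6 of 6 were called for the difference between the responses. The part of these markers and genes in the results for the 3 factors was not tested. In bulk tissue, fewer cells of a type and less RNA per cell cannot be told apart.

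Klf15 (ENSMUSG00000030087, chr6:90462576-90475238) rose in SM-Cn-/- aortas at all 3 times and passed the threshold at no time in Cn-Ctl aortas. The mean signal in Cn-Ctl aortas was 39.8 untreated, 50.2 at 2 h, 49.8 at 6 h, and 36.3 at 24 h. Its SM-Cn-/- signal was 34.7, 55.0, and 24.1 untreated, 67.2, 78.6, and 74.3 at 2 h, 95, 116, and 105 at 6 h, and 83.4, 64.3, and 101 at 24 h. In Cn-Ctl aortas it was 32.0 and 47.7 untreated, 55.1, 56.3, and 39.1 at 2 h, 53.7, 50.7, and 45 at 6 h, and 41.4 and 31.2 at 24 h. The genotypes overlapped only in the untreated pools. The log2 differences from untreated in SM-Cn-/- aortas were 1.02 ± 0.24 at 2 h (limma, adjusted p = 0.0393), 1.54 ± 0.24 at 6 h (adjusted p = 0.0012), and 1.17 ± 0.24 at 24 h (adjusted p = 0.0213), the last as the 1 member called of 8 beside 0.79% of all genes. SM-Cn-/- lay above Cn-Ctl by 0.56 ± 0.24 at 2 h (adjusted p = 0.281), 1.07 ± 0.24 at 6 h (adjusted p = 0.0206), and 1.17 ± 0.27 at 24 h (adjusted p = 0.013). The differences between the responses, 1.19 ± 0.37 at 6 h (adjusted p = 0.467) and 1.29 ± 0.38 at 24 h (adjusted p = 0.142), did not pass the threshold.

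The calls for Klf15 at 2 and 24 h in SM-Cn-/- aortas were sensitive to single libraries. At 2 h the call was lost without untreated SM-Cn-/- replicate 3 (0.74, adjusted p = 0.332), the lowest untreated pool, without untreated replicate 1 (0.99, 0.0983), and without SM-Cn-/- 2 h replicate 1, 2, or 3 (adjusted p between 0.0859 and 0.176). It was also lost with edgeR (adjusted p = 0.0661), median-ratio scaling (0.0526), quantile normalization (0.077), no intensity trend (0.102), and only the groups compared (0.0733). At 24 h it was lost without untreated SM-Cn-/- replicate 3 (0.89, adjusted p = 0.144) or 1 (1.15, 0.0571) or SM-Cn-/- 24 h replicate 1 or 3 (0.117 and 0.123), without an intensity trend (0.0686), and with only the groups compared (0.0841), and the 6 h call held in each of 6 such fits. The difference between genotypes at 6 h lost its call without Cn-Ctl 6 h replicate 2 or 3 or SM-Cn-/- 6 h replicate 2 or 3 (adjusted p between 0.0627 and 0.0995), without an intensity trend (0.0592), and with only the groups compared (0.0526). At 24 h it was lost without Cn-Ctl 24 h replicate 3 (0.97, 0.22) or SM-Cn-/- 24 h replicate 3 (1.02, 0.0603). Without untreated SM-Cn-/- replicate 2 the difference between the 24 h responses was 1.60 and was called (adjusted p = 0.0487). The summed signal of the adipose markers, a tissue in which Klf15 is known to be expressed, was 791 to 3628 in untreated and 1352 to 2527 in SM-Cn-/- aortas at 6 h, and 749 to 2479 in Cn-Ctl aortas at 6 h. The summed signal of the endothelial markers was 646 to 885 in untreated SM-Cn-/- aortas, 702 to 1479 at 6 h, and 1292 to 1349 at 24 h. In Cn-Ctl aortas it was 411 to 518 untreated, 651 to 718 at 6 h, and 569 to 609 at 24 h. Between the genotypes this sum lay apart untreated and at 24 h and overlapped at 6 h, whereas Klf15 overlapped untreated and lay apart at 6 and 24 h. In SM-Cn-/- aortas the sum at 24 h also lay above the untreated pools. The part of either set of markers in the values of Klf15 was not tested.

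Of the other glucocorticoid-responsive members, Klf9 (ENSMUSG00000033863, chr19:23141226-23168134) and Klf13 (ENSMUSG00000052040, chr7:63886351-63938915) had 1 and 0 calls in the 13 comparisons of the genotype experiment by limma, 0 and 0 by edgeR, and 1 and 2 by DESeq2, with 1 and 3 comparisons at an unadjusted p under 0.05. The microRNA gene Mir1192 lies within Klf9 on its strand, and 2 genes lie within Klf13 on the opposite strand, none of them over an exon of these members, and whether reads were counted by strand is not given in the sources used here. Klf9 was 126, 330, and 289 in untreated SM-Cn-/- pools and 368, 486, and 603 at 6 h. All 6 h pools lay above the untreated ones, and the log2 difference was 1.05 ± 0.28 (limma, adjusted p = 0.05 after rounding, just under the threshold). Klf9 and Klf15 were the 2 members of 8 called at 6 h in SM-Cn-/- aortas, beside 2.34% of all genes. The Klf9 call was lost under 7 alternatives (adjusted p between 0.0515 and 0.197) and without untreated SM-Cn-/- replicate 1 (0.62, 0.246) or 3 (1.22, 0.0726) or SM-Cn-/- 6 h replicate 2 or 3 (0.149 and 0.179). At 2 h its log2 difference was 0.47 ± 0.32 in Cn-Ctl (adjusted p = 0.471) and 0.54 ± 0.28 in SM-Cn-/- aortas (adjusted p = 0.434). Klf13 was 128, 136, and 132 in untreated SM-Cn-/- pools and 202, 219, and 237 at 2 h, without overlap. The log2 difference of 0.73 ± 0.19 missed the threshold (adjusted p = 0.0636) and passed it with DESeq2 (0.0113), with only the groups compared (0.0303), and with the replicate number as a block (0.0435). At 6 h the difference was 0.62 ± 0.19 (adjusted p = 0.0836) and was called without SM-Cn-/- 6 h replicate 3 (0.80, 0.0435) and with DESeq2 (0.0177).

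Klf10 (ENSMUSG00000037465, chr15:38291463-38300706) and Klf5 (ENSMUSG00000005148, chr14:99298691-99315036) were called in 0 of the 13 comparisons of the genotype experiment by limma, edgeR, and DESeq2, with 1 comparison for Klf10 and 3 for Klf5 at an unadjusted p under 0.05. The signal of Klf10 lay between 14.3 and 39.9 over the 22 libraries and that of Klf5 between 1.24 and 6.96, the latter from 5 to 51 reads in a library, and the standard error of its log2 differences between groups was 0.44 to 0.54. The largest difference of Klf5 was at 24 h, where the Cn-Ctl pools (5.07 and 6.86) lay above the SM-Cn-/- pools (2.35, 1.47, and 1.79) by a log2 difference of -1.45 ± 0.50 for SM-Cn-/- against Cn-Ctl (limma, adjusted p = 0.105). Its difference from untreated in SM-Cn-/- aortas at 2 h was 1.21 ± 0.44 (adjusted p = 0.228).

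Does inhibiting the phosphatase have the same effect on these genes as deleting Ppp3r1? In WT aortas Klf6, Klf4, Klf2, Klf15, and Klf9 rose at 2 h, 5 of 8 members beside 21.4% of all genes, with a median log2 difference of 0.88 over the members and 0.02 over all genes. In CsA aortas Klf6, Klf4, Klf9, and Klf13 rose, 4 of 8 beside 20.1% (medians 0.36 and -0.02). Between treated CsA and treated WT aortas at 2 h, 0 of 8 members were called by limma, beside 1.33% of all genes, with 4 members at an unadjusted p under 0.05 and 0 called by edgeR and by DESeq2. For the difference between the responses 1 of 8, Klf4, was called both at 2 h, beside 0.146% of all genes, and at 24 h, beside 9.42%. The pools of a treated group lay apart from the untreated ones in 6 and 4 of 8 members at 2 and 24 h in WT aortas, beside 40.5% and 51% of all genes, and in 5 and 3 in CsA aortas, beside 36.9% and 29.2%. Untreated and at 2 and 24 h the arms lay apart in 3, 3, and 2 of 8, beside 47.8%, 20.2%, and 27%.

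**Figure D3:**
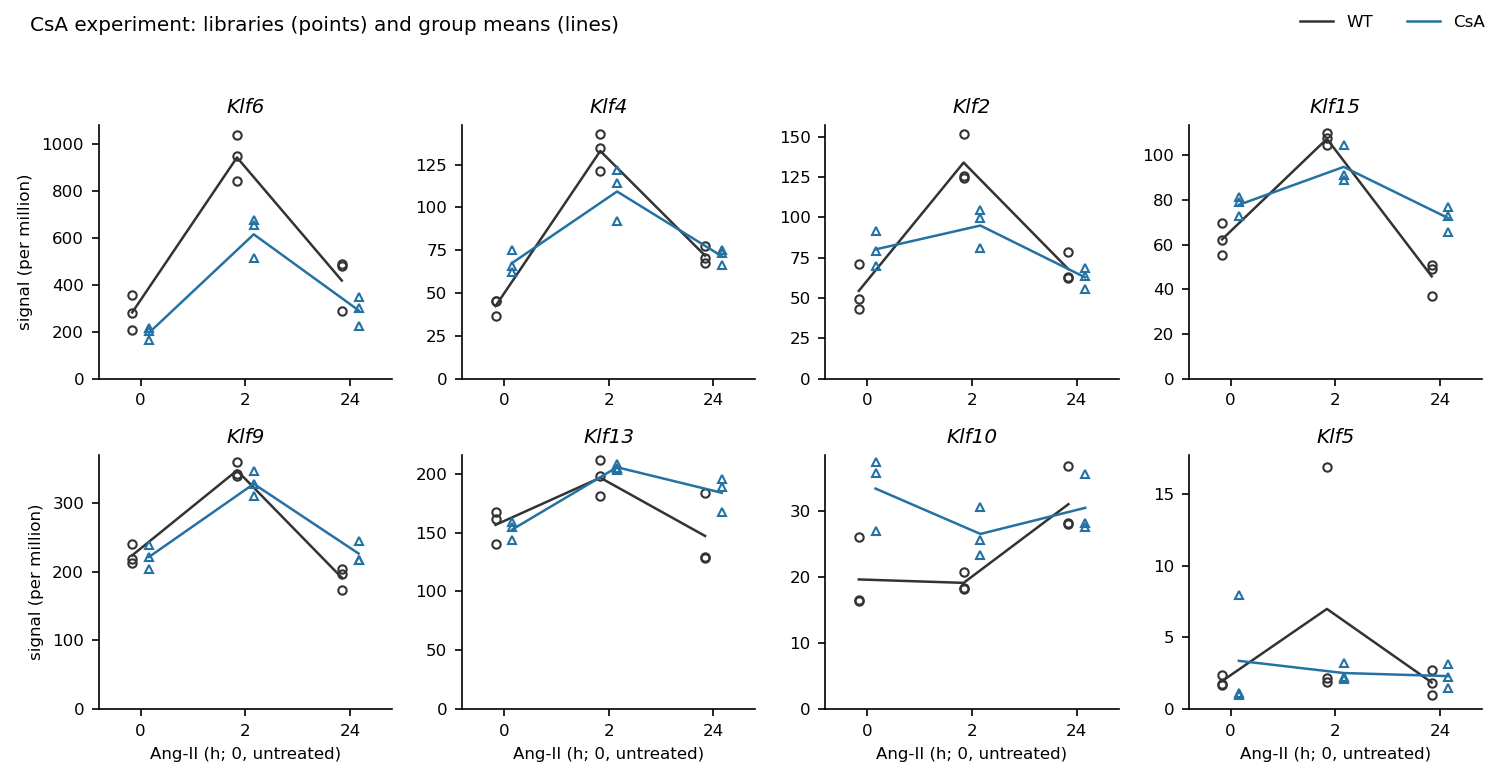
Signal (y axis, from 0) of each member against hours of Ang-II (x axis, evenly spaced and not to scale, 0 is untreated) in WT (circles) and CsA aortas (triangles); points are pools and lines join group means. Klf6 rises at 2 h in both arms, Klf4 and Klf2 start higher in CsA aortas, and single high points of Klf5 are the libraries with airway genes.

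Klf6 rose with and without CsA. Its signal was 207, 282, and 358 in untreated WT pools and 949, 841, and 1037 at 2 h, and 203, 217, and 166 in untreated CsA pools and 516, 655, and 674 at 2 h. In each arm all pools at 2 h lay above all untreated pools, and the CsA pools at 2 h lay below the WT pools at 2 h. The log2 differences from untreated were 1.77 ± 0.22 in WT (limma, adjusted p = 4.4e-05) and 1.65 ± 0.22 in CsA aortas (adjusted p = 1.83e-04), and they differed by -0.12 ± 0.32 (95% CI -0.79 to 0.55, adjusted p = 0.893). The sign of that small difference turned under quantile normalization (0.07, adjusted p = 0.924) and without CsA 2 h replicate 1 (0.004) or untreated WT replicate 1 (0.088). CsA lay below WT at 2 h by -0.62 ± 0.22 (adjusted p = 0.16). At 24 h the differences from untreated were 0.56 in both arms (SE 0.22, adjusted p = 0.0633 in WT and 0.127 in CsA aortas). The WT value was called without WT 24 h replicate 3 (0.81, 0.0096), without untreated WT replicate 3 (0.75, 0.0268), with DESeq2 (0.0293), and with quantile normalization (0.037).

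Klf4 rose less in CsA aortas, from a higher untreated level. The signal was 45.4, 36.4, and 45.4 in untreated WT pools and 75.1, 62.0, and 65.7 in untreated CsA pools. At 2 h it was 121, 135, and 143 in WT and 114, 122, and 91.8 in CsA aortas, and at 24 h 70.4, 77.5, and 67.6 and 73.3, 66.2, and 75. The arms did not overlap untreated and overlapped at 2 and 24 h. The log2 difference from untreated at 2 h was 1.64 ± 0.12 in WT (limma, adjusted p = 1.67e-07) and 0.68 ± 0.12 in CsA aortas (adjusted p = 0.00102), and that at 24 h was 0.76 ± 0.12 in WT (adjusted p = 1.34e-04). The responses of CsA and WT differed by -0.96 ± 0.17 at 2 h (95% CI -1.31 to -0.61, adjusted p = 0.04) and -0.68 ± 0.17 at 24 h (95% CI -1.03 to -0.33, adjusted p = 0.0197), while the untreated levels differed by 0.67 ± 0.12 (adjusted p = 0.00151). Each response difference holds the untreated difference with the opposite sign, and at 2 h CsA and WT aortas differed by -0.29 ± 0.12 (adjusted p = 0.203).

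The call for the 2 h response difference of Klf4 was near the threshold. It was lost without any 1 of 11 of the 12 libraries of the comparison, all but CsA untreated replicate 1 (values -1.04 to -0.84, adjusted p between 0.0503 and 0.146), without both libraries with airway genes (-0.87, adjusted p = 0.101), with the replicate number as a block (adjusted p = 0.0614), without an intensity trend (0.0559), and with quantile normalization (0.0698). At 24 h the call was lost without CsA 24 h replicate 2, WT 24 h replicate 2, or untreated WT replicate 2 (adjusted p between 0.0579 and 0.0603) and was kept without both libraries with airway genes (-0.60, 0.0498). The rise in CsA aortas at 2 h and the untreated difference held without those libraries, at 0.76 (adjusted p = 0.00173) and 0.59 (adjusted p = 0.00939).

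Klf2 rose at 2 h in WT aortas and did not pass the threshold in CsA aortas. The signal was 49.1, 43.1, and 71.1 in untreated WT pools and 124, 152, and 126 at 2 h, and 79.0, 91.3, and 70.0 in untreated CsA pools and 104.5, 99.3, and 80.9 at 2 h. The WT pools at 2 h lay apart from the untreated ones, whereas the CsA pools overlapped. The log2 difference from untreated was 1.32 ± 0.17 in WT (limma, adjusted p = 3.8e-05) and 0.24 ± 0.17 in CsA aortas (95% CI -0.11 to 0.59, adjusted p = 0.308). Their difference, -1.07 ± 0.23 (95% CI -1.57 to -0.58), did not pass the threshold (adjusted p = 0.0776). It passed with DESeq2 (adjusted p = 0.0045) and without untreated WT replicate 3 (-1.28, 0.0347). Without both libraries with airway genes it was -0.99 and lay further from the threshold (adjusted p = 0.211). CsA lay below WT at 2 h by -0.50 ± 0.17 (adjusted p = 0.131), and CsA aortas at 24 h lay below untreated ones by -0.35 ± 0.17 (adjusted p = 0.196). Untreated CsA lay above untreated WT by 0.58 ± 0.17 (adjusted p = 0.0186), with overlap between the pools, and that call was lost without CsA untreated replicate 2 (0.48, 0.0727) or untreated WT replicate 1 or 2 (0.0628 and 0.0981).

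**Figure D4:**
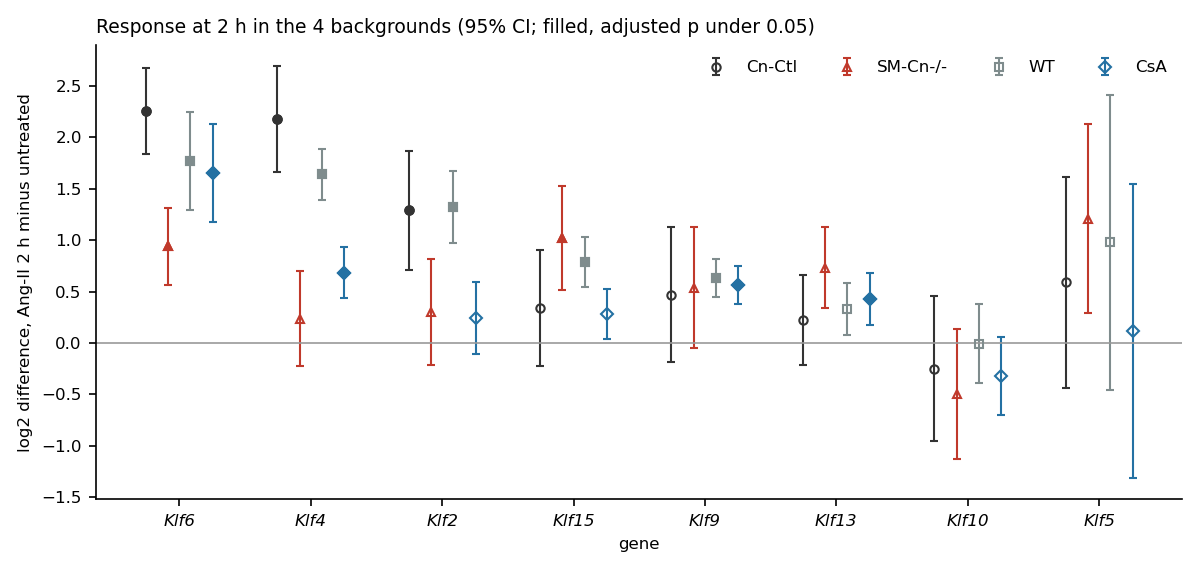
Log2 difference between Ang-II 2 h and untreated (y axis) for each member (x axis) in the 4 backgrounds; bars are 95% confidence intervals and filled points have an adjusted p under 0.05. Klf6 is filled in all 4 backgrounds, at 2.25, 0.94, 1.77, and 1.65, whereas Klf4 and Klf2 are near 0.24 and 0.30 in SM-Cn-/- aortas.

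Klf15 and Klf9 also rose in WT aortas at 2 h. Klf15 was 69.8, 61.9, and 55.2 untreated and 110, 104, and 108 at 2 h, and fell to 49.1, 37.2, and 51.0 at 24 h, below all untreated pools. The log2 differences were 0.79 ± 0.12 at 2 h (limma, adjusted p = 1.62e-04) and -0.45 ± 0.12 at 24 h (adjusted p = 0.00646). In CsA aortas Klf15 was 81.5, 79.1, and 72.7 untreated, 104, 91.0, and 88.7 at 2 h (0.28 ± 0.12, adjusted p = 0.0932), and 72.7, 76.8, and 65.7 at 24 h. At 24 h CsA lay above WT by 0.65 ± 0.12 (adjusted p = 0.00642), the 1 member of 8 called there beside 5.58% of all genes, and this call held in the 6 fits that left out 1 library and was lost when only the groups compared were fitted (adjusted p = 0.107). The 2 h responses differed by -0.50 ± 0.16 without passing the threshold (adjusted p = 0.197).

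Klf9 was 213, 219, and 240 in untreated WT pools and 340, 342, and 360 at 2 h, and 222, 239, and 204 in untreated CsA pools and 327, 346, and 310 at 2 h. All pools at 2 h lay above all untreated pools in both arms. The log2 differences were 0.63 ± 0.09 in WT (limma, adjusted p = 8.7e-05) and 0.57 ± 0.09 in CsA aortas (adjusted p = 4.44e-04). In WT aortas at 24 h the difference was -0.23 ± 0.09 (adjusted p = 0.0522), which was called without WT 24 h replicate 3 (-0.28, 0.0372), with DESeq2 (0.0379), and with quantile normalization (0.0362). Klf13 was 144, 159, and 154 in untreated CsA pools and 203, 208, and 205 at 2 h, a difference of 0.43 ± 0.12 (adjusted p = 0.0189), against 0.33 ± 0.12 in WT aortas (adjusted p = 0.0595; 0.0401 with DESeq2 and 0.0449 with only the groups compared). The Klf13 call was lost without CsA untreated replicate 1 (0.39, 0.0655), without CsA 2 h replicate 2 (0.42, 0.0629), without both libraries with airway genes (0.39, 0.0707), and with quantile normalization (0.237).

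Klf10 was not called at 2 h in either arm and rose late in WT aortas. It was 26.1, 16.5, and 16.4 in untreated WT pools, 18.2, 20.8, and 18.4 at 2 h, and 28.2, 28.1, and 36.8 at 24 h, a log2 difference of 0.67 ± 0.18 at 24 h (limma, adjusted p = 0.00872). The 24 h pools lay above all untreated pools. The summed signals of 4 sets of markers were also higher at 24 h than in untreated WT aortas, each without overlap. For macrophage markers the sum went from 106 to 155 to 280 to 415, and for adventitial fibroblast markers from 2120 to 3039 to 3322 to 3790. For endothelial markers it went from 452 to 754 to 804 to 953, and for adipose markers from 627 to 1172 to 1480 to 1745. The sums of blood, striated muscle, and nerve markers overlapped. The part of any of these markers in the rise of Klf10 was not tested. Klf10, Klf4, and Klf15 were the 3 members of 8 called in WT aortas at 24 h, beside 35% of all genes, and 5 were called with DESeq2 and with quantile normalization. In CsA aortas 0 of 8 members were called at 24 h by limma, edgeR, and DESeq2, with 2 at an unadjusted p under 0.05, beside 8.98% of all genes. Untreated CsA pools had a Klf10 signal of 27.1, 37.4, and 35.8, above all untreated WT pools, with a difference of 0.77 ± 0.18 (adjusted p = 0.00639). The 24 h responses differed by -0.80 ± 0.25 (adjusted p = 0.0598), which was called without both libraries with airway genes (-0.94, 0.0399), with DESeq2 (0.0374), and without CsA 24 h replicate 3 (-0.91, 0.0263), CsA untreated replicate 1 (-0.94, 0.0393), or untreated WT replicate 1 (-1.01, 0.0177).

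Klf5 was high in the libraries with airway genes. Its signal was 1.87, 16.9, and 2.18 in WT aortas at 2 h and 7.96, 0.998, and 1.14 in untreated CsA aortas, where 16.9 and 7.96 come from the libraries with airway genes, and it was between 0.998 and 3.23 in the other 16 libraries. Klf5 is known to be expressed in epithelia. Its part in these values beside that of the vessel wall was not tested. It was called in 0 of the 9 comparisons of the CsA experiment by limma, edgeR, and DESeq2, with 0 at an unadjusted p under 0.05. Without both libraries its log2 difference from untreated at 2 h was 0.05 in WT (adjusted p = 0.946) and 0.93 in CsA aortas (adjusted p = 0.0678), against 0.98 (adjusted p = 0.347) and 0.12 (adjusted p = 0.922) with them.

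Untreated CsA aortas differed from untreated WT aortas in the cells' markers as well as in Klf2, Klf4, and Klf10, the 3 members called of 8 beside 25.2% of all genes. The summed signal of the 10 endothelial markers was 452 to 754 in untreated WT and 1183 to 1383 in untreated CsA libraries, and 10 of 10 were called higher. The adipose markers summed to 627 to 1172 and 3630 to 5902, with 5 of 6 called higher, the macrophage markers had 7 of 7 called higher, and 13 of 14 contractile genes were called lower (median log2 difference -0.68). The part of these differences in those of Klf2, Klf4, and Klf10 was not tested.

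**Figure D5:**
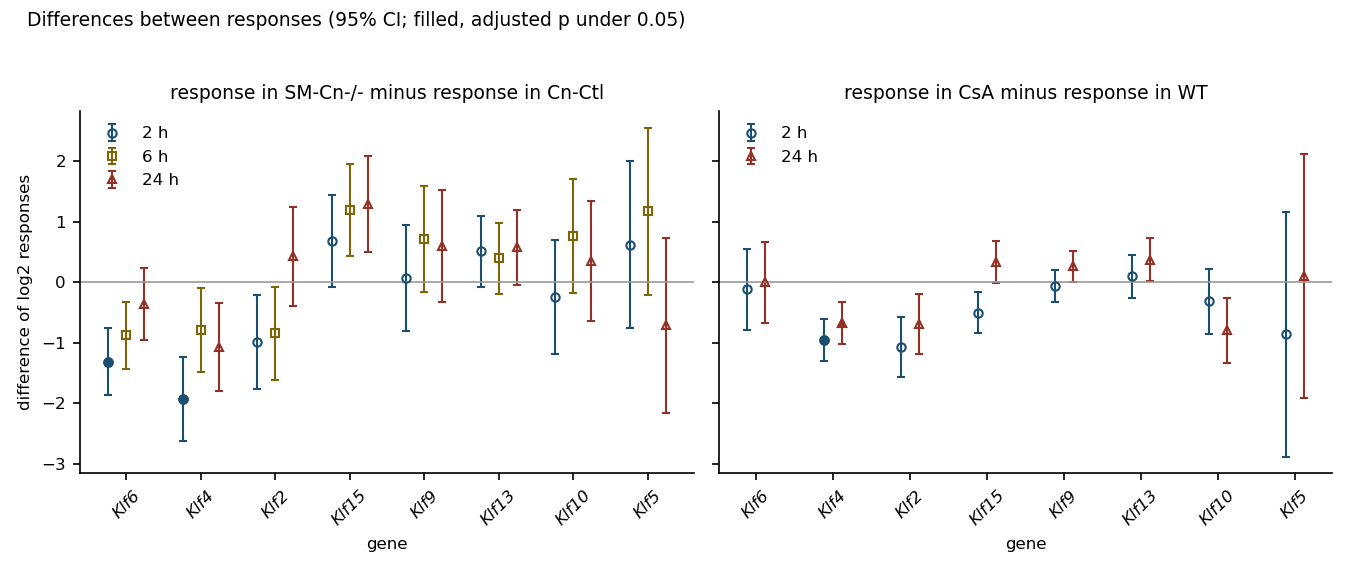
Difference between the log2 responses to Ang-II (y axis) for each member (x axis), SM-Cn-/- minus Cn-Ctl on the left and CsA minus WT on the right, at each time; bars are 95% confidence intervals and filled points have an adjusted p under 0.05. Klf6 (-1.31) and Klf4 (-1.94) are filled at 2 h on the left and Klf4 at 2 h (-0.96) and 24 h (-0.68) on the right, where Klf6 lies at -0.12 at 2 h.

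The rest of the family was followed as a list. At 2 h the shares of all genes called, beside which the counts of this and the other lists stand, were 6.23% (Cn-Ctl) and 1.13% (SM-Cn-/-) in the genotype experiment and 21.4% (WT) and 20.1% (CsA) in the CsA experiment. Of 18 other KLF and SP genes, 12 were tested in the genotype experiment and 0 of them were called at 2 h by limma, edgeR, and DESeq2 in either genotype, with 1 in Cn-Ctl and 2 in SM-Cn-/- aortas at an unadjusted p under 0.05 and medians of 0.29 in Cn-Ctl and 0.40 in SM-Cn-/- aortas. In WT aortas 4 of 10 rose at 2 h, beside 21.4% of all genes (median 0.20): Klf12, a repressor of the family (0.65 ± 0.17, adjusted p = 0.0112), Klf11, a TGF-beta-inducible relative of Klf10 (0.63 ± 0.18, 0.0176), Sp2 (0.60 ± 0.15, 0.0109), and Klf3, a repressor that recruits Ctbp (0.29 ± 0.09, 0.0285). In CsA aortas 2 of 10 rose, about the 20.1% called among all genes (median 0.29), Sp2 (0.49 ± 0.15, 0.034) and Klf3 (0.32 ± 0.09, 0.0192).

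Among 17 genes that act upstream of KLF genes (the Erk5 cascade, Mef2 and Srf factors and their cofactors, class IIa histone deacetylases), Elk4, a partner of Srf, was the 1 called in Cn-Ctl at 2 h (0.73, adjusted p = 0.0486), and 0 of 17 were called in SM-Cn-/- aortas by limma, edgeR, and DESeq2, with 1 at an unadjusted p under 0.05. The Elk4 call stands for 1 of 17 by limma, against 0 by edgeR and 1 by DESeq2. In WT aortas 3 of 17 were called, a smaller share than the 21.4% of all genes, with Elk4 (0.58) and the deacetylase gene Hdac4 (0.65) higher and Elk3 (-0.48) lower. In CsA aortas, beside 20.1% of all genes, 6 of 17 rose, led by Mef2a (0.55), Mkl1 (0.51), and Mef2d (0.48), and Elk3 fell (-0.67). Of 11 cofactors, 0 were called at 2 h in either genotype by limma and by edgeR and 1 in SM-Cn-/- aortas by DESeq2, with 1 in each genotype at an unadjusted p under 0.05. In WT aortas 3 rose and 1 fell, the ubiquitin ligase gene Wwp1 (0.47), Crebbp (0.33), and Sin3b (0.32) against Sin3a (-0.38), and in CsA aortas 3 rose, Crebbp (0.44), Sin3b (0.39), and Wwp1 (0.34), and 2 fell, among them Sin3a (-0.39).

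Known targets of the members were read as lists beside them. The 8 endothelial target genes of Klf2 and Klf4 were counted without regard to whether a gene is known to be induced or repressed. Of them, 1 was called in Cn-Ctl aortas at 2 h, the lower Angpt2 (-1.31, limma, adjusted p = 0.00736). In WT aortas S1pr1 rose (1.04) and Angpt2 fell (-0.70) at 2 h, in CsA aortas 0 of 8 were called by limma, edgeR, and DESeq2 with 0 at an unadjusted p under 0.05, and in untreated CsA against WT, beside 25.2% of all genes, 5 of 8 were higher, led by Sele (1.89), S1pr1 (1.67), and Nos3 (1.22), beside the endothelial markers given above. Of 14 contractile genes, which Klf4 represses in smooth muscle cells in culture, 1 was called in Cn-Ctl at 2 h, Myocd, the coactivator of Srf (2.13, adjusted p = 0.00296), and 4 in WT aortas, among them Myocd (1.40) and Cnn1 (0.58). All these were higher, and no other gene of the 14 was called in either. Of 7 metabolic target genes of Klf15, 1 was called in SM-Cn-/- aortas at 6 h, beside 2.34% of all genes (median -0.03). At 2 and 24 h 0 were called there by limma and by edgeR and 1 at 2 h by DESeq2, with 2 at each time at an unadjusted p under 0.05. Of these 7 genes 6 were higher in untreated CsA than untreated WT aortas, beside 25.2% of all genes (median 1.08), beside the adipose markers given above.

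Genes that respond to glucocorticoids were read beside Klf9, Klf13, and Klf15. Of 8 such genes, 5 were called higher at 2 h in Cn-Ctl (median 1.88, beside 6.23% of all genes called) and 4 in SM-Cn-/- aortas (median 1.11, beside 1.13%), led by Fkbp5 (2.97 and 3.70), and 7 in WT (median 1.84, beside 21.4%, with the receptor gene Nr3c1 lower) and 5 in CsA aortas (median 0.73, beside 20.1%). At 6 h in SM-Cn-/- aortas 6 of 8 were called, beside 2.34% of all genes (median 1.46), among them Fkbp5 (3.03) and Tsc22d3 (2.24). Of 14 clock genes, 1 was higher and 4 were lower in Cn-Ctl aortas at 2 h (Arntl at 3.59, Per3 at -2.62, Dbp at -2.40, and Hlf at -1.96 among them) and 0 were called in SM-Cn-/- aortas by limma, 1 by edgeR, and 2 by DESeq2, with 3 at an unadjusted p under 0.05. In WT aortas 2 were higher and 9 lower at 24 h, beside 35% of all genes. The part of hormone level and of the hour of collection in the values of Klf9, Klf10, and Klf15 was not tested. Of 10 TGF-beta pathway genes around Klf10, 4 rose at 2 h in Cn-Ctl, 4 in WT, and 4 in CsA aortas, led by Tgfb2 (2.15, 1.78, and 1.99), and 1 in SM-Cn-/- aortas, Tgfbr1 (1.14). Klf10 itself was not called at 2 h.

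Correlations of log2 signal between members are a description over 22 and 18 libraries that share their groups. Klf4 and Klf6 had Pearson r of 0.84 and 0.76 in the genotype and CsA experiments, Klf2 and Klf6 0.79 and 0.70, and Klf2 and Klf4 0.71 and 0.88. Klf13 and Klf15 had 0.63 and 0.69 and Klf9 and Klf15 0.54 and 0.87, while Klf15 had 0.00 and 0.63 with Klf4, 0.01 and 0.43 with Klf6, and 0.20 and 0.64 with Klf2. Klf9 had 0.46 and 0.76 with Klf2, 0.44 and 0.75 with Klf4, and 0.46 and 0.75 with Klf6. By the smaller of the 2 correlations, the gene most like Klf6 among 10348 genes was Ifrd1 (0.95), followed by Cyr61 (0.95) and Eci2 (0.94). Klf4 was most like Trib1 (0.91), Hk2 (0.88), and Eprs (0.87), and Klf2 was most like Trib1 (0.80), Hspb1 (0.80), and Dnaja4 (0.79), of which Hspb1 and Dnaja4 encode chaperones. Klf15 was most like Arrdc2 (0.83), Stim1 (0.75), and Pcnt (0.75), Klf13 like Spsb1 (0.80), Arrdc2 (0.79), and Usp54 (0.76), and Klf9 like Map1b (0.85), Zbtb20 (0.84), and Myo9b (0.80). Klf10 was most like Unc45b (0.66), Arap3 (0.57), and She (0.57), and Klf5 like Cfap43, a gene of motile cilia (0.49), Gclc (0.42), and Gprc5a (0.41). All these correlations include both libraries with airway genes, in which Klf5 was high, and were not computed without them.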

How the data were processed

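Each of the 40 libraries was cDNA of polyadenylated RNA from a pool of 3 mouse aortas, sequenced on an Illumina Genome Analyzer IIx. The authors aligned the reads to Ensembl transcripts with Bowtie 0.12.7 and RSEM 1.16, per the submitters' processing notes with the build GRCm38, and discarded 1 untreated Cn-Ctl library. The deposited values are a normalized signal per gene. It is the number of assigned reads, with 0.5 added, over the library's total after scaling by the authors, on a scale close to RPM. Their low-value filter, their scaling method, and the strand setting are not given in the sources used here. Column totals were 919720 to 1179400 in the genotype experiment and 877580 to 1154900 in the CsA experiment, and 100% of the values converted back to whole reads within 0.001 reads.

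Groups and replicate numbers were taken from the sample labels. Pools of a group differed by more than sampling noise, and p-values measure the spread between pools. Protein-coding genes (GENCODE M21) with a signal of at least 1 in at least 2 libraries entered limma 3.58.1 (R 4.3.3) as log2(signal + 0.5), which understates changes of low genes. One model of all groups was fitted per experiment, with empirical Bayes variances that follow intensity, and p-values of each of the 22 comparisons were adjusted by Benjamini-Hochberg. The limma, edgeR, and DESeq2 fits were tested on simulated reads for 1 comparison per experiment, Ang-II 2 h against untreated in Cn-Ctl and in WT aortas. The response differences and the other alternatives were not simulated. Alternatives were edgeR 4.0.16 and DESeq2 1.42.0 on the recovered reads, other scalings, pseudocounts, filters, and gene sets, a fit of only the groups compared, a fit without the intensity trend, the replicate number as a block, each library left out in turn, and, chosen after seeing the data, both libraries with airway genes left out.

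The members and the gene lists were chosen with earlier results of these data known. Named were all members, up to 4 called genes per list and comparison by absolute log2 difference, the 3 genes most like each member (the smaller Pearson correlation over both experiments, mean signal at least 5), and Rcan1 and Ppp3r1 as checks. Nr3c1 was named after its value was seen. Signal per kb was divided by the length of the union of exons, and promoters are RefSeq sequences on GRCm38.p6.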

Additional observations from a re-analysis of the deposited data

Results flagged for a closer look

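In 4 cases the response of a member to Ang-II differed between groups in the test of the difference itself (limma, Benjamini-Hochberg adjusted over all genes tested). The log2 response at 2 h was smaller in SM-Cn-/- than in Cn-Ctl aortas for Klf6 (-1.31, adjusted p = 0.0209) and Klf4 (-1.94, adjusted p = 0.00607). For Klf4 it was also smaller in CsA than in WT aortas at 2 h (-0.96, adjusted p = 0.04) and at 24 h (-0.68, adjusted p = 0.0197).

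In 2 further cases every library of one group lay on the opposite side of its untreated mean of log2(signal + 0.5) from every library of the other, without passing that test. For Klf9 at 24 h the Cn-Ctl libraries lay below and the SM-Cn-/- libraries above these log2 means, and the responses differed by 0.60 (limma, adjusted p = 0.668). For Klf2 at 24 h the WT libraries lay above and the CsA libraries below, with a difference of -0.69 (limma, adjusted p = 0.0735). That difference passed the threshold without CsA 24 h replicate 3 (-0.75, adjusted p = 0.0472) or untreated WT replicate 3 (-0.89, adjusted p = 0.0234). Without both libraries with airway genes it did not pass (-0.69, adjusted p = 0.104). Groups of 2 or 3 pools are too small to check a single pool as an outlier.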

How the results depend on the processing

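Over the alternatives to the processing, single members kept their direction and their side of the threshold in 745 values, lost a call in 37, gained one in 13, and turned sign in 1. With 1 library left out the numbers were 412, 62, 12, and 2. The cause was not tested in any of them. The sign turned for the difference of the Klf6 responses at 2 h between CsA and WT, from -0.12 to 0.07 with quantile normalization (adjusted p = 0.924), to 0.004 without CsA 2 h replicate 1, and to 0.088 without untreated WT replicate 1 (range -0.306 to 0.088 over the fits without 1 library).

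The number of members called moved by over 1.5 times as follows. With only the groups compared it went from 3 to 1 in Cn-Ctl at 6 h, from 1 to 0 in Cn-Ctl at 24 h, from 2 to 1 in SM-Cn-/- at 6 h, from 1 to 0 in SM-Cn-/- at 24 h, from 3 to 0 between genotypes at 6 h, and from 1 to 0 between CsA and WT at 24 h. Without an intensity trend it went from 2 to 1 in SM-Cn-/- at 2 h and at 6 h, from 1 to 0 there at 24 h, from 3 to 1 between genotypes at 6 h, from 2 to 1 for the genotype response difference at 2 h, and from 1 to 0 for the CsA response difference at 2 h. Quantile normalization gave 1 in place of 2 in SM-Cn-/- at 2 h and at 6 h and for the genotype response difference at 2 h, 5 in place of 3 in WT at 24 h, 2 in place of 1 between CsA and WT at 24 h, and 0 in place of 1 for the CsA response difference at 2 h. In SM-Cn-/- mice 1 in place of 2 was called with edgeR and with median-ratio scaling at 2 h and at 6 h, and with all genes of the table and a pseudocount of 0.1 at 6 h. DESeq2 called 5 in place of 3 in WT at 24 h and 2 in place of 1 for the CsA response differences at 2 h and at 24 h. Without both libraries with airway genes the latter were 0 at 2 h and 2 at 24 h.

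Leaving out each library in turn gave these ranges of members called: Cn-Ctl 2 to 3 at 2 h, 2 to 3 at 6 h, and 0 to 1 at 24 h; SM-Cn-/- 0 to 2 at 2 h, 1 to 3 at 6 h, and 0 to 1 at 24 h. Between genotypes it was 0 to 0 untreated, 2 to 3 at 2 h, 0 to 3 at 6 h, and 0 to 2 at 24 h, and for their response differences 0 to 2, 0 to 0, and 0 to 1. It was 5 to 5 in WT at 2 h, 3 to 6 at 24 h, 3 to 4 in CsA at 2 h, and 0 to 0 at 24 h. Between CsA and WT it was 2 to 4 untreated, 0 to 0 at 2 h, and 1 to 3 at 24 h, with 0 to 1 and 0 to 3 for the response differences.

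Replicate numbers are shared across groups. In the genotype experiment deviations of libraries with the same number had a median correlation of 0.059 (-0.374 to 0.339, 27 of 71 pairs over 0.1). Libraries with different numbers had -0.042 there (-0.414 to 0.343, 36 of 140). In the CsA experiment the medians were -0.028 (-0.389 to 0.377, 11 of 45) with the same number and -0.013 (-0.324 to 0.398, 26 of 90) with different numbers. Whether a shared number links pools is not settled by these values, and the main fits treat the pools as unpaired. With the replicate number as a block 3 of 70 single calls changed, Klf13 in SM-Cn-/- at 2 h (adjusted p = 0.0435, called), Klf2 between genotypes at 6 h (0.0503, not called), and Klf4 for the CsA response difference at 2 h (0.0614, not called). The block took the number of members called from 1 to 0 for that difference, from 2 to 3 in SM-Cn-/- at 2 h, from 3 to 2 between genotypes at 6 h, and from 3 to 4 in untreated CsA against WT. Depth limits Klf5 most, whose genotype libraries held 5 to 51 reads.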
